A study of Mus musculus with 69 samples.

Results

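A set of 10 genes with no primary role in inflammation was followed through mouse lung after instillation of nano-sized titanium dioxide. They are Aox1, Slc13a4, Tmem140, Grb7, Fbxo31, Wdr45, Hnrnpdl, Klhl24, Penk and Nxph3, out of the 18656 genes tested. They were picked from these data because both titanium dioxide materials had moved them at the highest dose on day 1. Their day 1 differences at that dose are therefore a description, whatever their adjusted p, and tests are read only from comparisons that the choice did not use.

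Female C57BL/6 mice received a single intratracheal instillation of NRCWE-025 or NRCWE-030, each a nano-sized titanium dioxide, at 18, 54 or 162 µg, or the vehicle, water with 2% serum. They were 5 to 7 weeks old on arrival and had 1 to 3 weeks to acclimatise. Lung RNA of 1 mouse, labelled with Cy5, was hybridised on each of 69 arrays against a common Cy3-labelled mouse reference RNA. The 14 groups are the vehicle and the 3 doses of each material, on day 1 and on day 28, with 5 mice in every group except NRCWE-025 162 µg on day 28, which had 4. The 5 vehicle mice of a day served as controls for both materials, and no strain difference, transgene or deletion separates the groups. All levels below are log2 ratios of the lung sample over the reference RNA, and a difference of 1 on this scale is a doubling. A ratio to the reference does not rank genes against each other. Between 49.1 and 72.8% of probes per array were well above background in Cy5. In pieces of lung, fewer cells of a type and less RNA per cell cannot be told apart.

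The 10 genes do not form a pathway. Aox1 encodes aldehyde oxidase, a molybdenum-containing enzyme that oxidises aldehydes and nitrogen heterocycles, and Slc13a4 encodes a sodium-coupled sulfate transporter. Grb7 is an adaptor that binds activated receptor tyrosine kinases such as ERBB2. Fbxo31 and Klhl24 are substrate receptors of cullin-RING ubiquitin ligases, the first for CUL1 and the second for CUL3 complexes. Wdr45 is a beta-propeller protein that binds phosphoinositides and acts in autophagosome formation. Hnrnpdl is an RNA-binding protein of the heterogeneous nuclear ribonucleoprotein (hnRNP) family, which acts in splicing and RNA turnover. Penk encodes the precursor of the enkephalin opioid peptides, and Nxph3 encodes neurexophilin 3, a secreted ligand of alpha-neurexins. Tmem140 is a transmembrane protein whose function is little described.

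The promoters of Aox1 and Slc13a4 are shown because these genes had the smallest adjusted p among the genes moved by both materials. The RefSeq promoter table held 6 of the 10 genes. Each line gives the 250 bases before the RefSeq start on the gene's strand, in GRCm38.p6, and capitals mark the CCAAT box and the GC box, whose letters are GGGCGG, on either strand. The Aox1 window is chr1:58029719-58029968 on the plus strand and the Slc13a4 window is chr6:35308127-35308376 on the minus strand.
Aox1: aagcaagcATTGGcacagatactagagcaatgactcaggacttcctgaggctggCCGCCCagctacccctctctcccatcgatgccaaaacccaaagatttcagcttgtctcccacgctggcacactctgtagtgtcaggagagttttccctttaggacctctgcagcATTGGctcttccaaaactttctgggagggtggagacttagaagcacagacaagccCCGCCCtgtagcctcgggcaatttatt
Slc13a4: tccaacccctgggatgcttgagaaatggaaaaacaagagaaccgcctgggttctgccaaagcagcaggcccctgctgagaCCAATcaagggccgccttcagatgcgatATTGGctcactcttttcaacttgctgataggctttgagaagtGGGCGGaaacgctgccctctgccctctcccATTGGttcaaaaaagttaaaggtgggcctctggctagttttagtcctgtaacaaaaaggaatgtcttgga
The Aox1 window held the CCAAT box 2 times and the GC box 2 times, and the Slc13a4 window held the CCAAT box 3 times and the GC box 1 time. Of all 32851 promoters of the same length, 33.8% held a CCAAT box and 32.7% a GC box on either strand. Of the 6 member promoters, 3 held a CCAAT box and 4 a GC box. None of the 6 held the TATA box letters TATAAA, which 12.4% of all promoters held. Nor did any hold the E-box letters CACGTG, found in 6.02%, or the cAMP response element TGACGTCA, found in 1.55% of all promoters. A match is a run of letters and not a binding site.

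On day 1 the 162 µg groups of both materials lay below the vehicle in 9 of the genes and above it in Hnrnpdl. Of all genes, 50% lay below the vehicle for NRCWE-025 and 48.7% for NRCWE-030. At an adjusted p under 0.05, 7 of the 10 passed for NRCWE-025, where 0.209% of all genes passed, and all 10 passed for NRCWE-030, where 1.69% did. These counts follow from how the genes were picked and carry no further information. In both materials together 16 genes (0.0858%) passed, 7 of them among the 10. The 3 that passed for NRCWE-030 alone were Nxph3, Klhl24 and Penk. With slide as a fixed block the members that passed were 0 for NRCWE-025 and 2 for NRCWE-030, and leaving out any 1 array gave 2 to 9 and 7 to 10. With the local backgrounds used as deposited, 11 genes passed for both materials and all 10 members were among them. Just inside the threshold, by the larger of the 2 adjusted p, were Nrros (0.0449) and Ch25h (0.0477), an enzyme that makes 25-hydroxycholesterol. Just outside were the acute-phase gene Saa1 (0.0532) and Rbm3 (0.0537), a cold-inducible RNA-binding protein.

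Slc13a4 had the largest difference of the 10 genes with NRCWE-025. The 5 vehicle mice of day 1 had levels of 2.95, 2.90, 2.83, 2.52 and 2.70, and the 5 mice given 162 µg NRCWE-025 had 1.76, 1.99, 2.17, 0.98 and 1.37. In the mice given 162 µg NRCWE-030 the levels were 0.87, 1.80, 1.92, 2.28 and 1.55. Every treated mouse at this dose lay below every control, and the treated mice were spread more widely than the controls. The differences were -1.13 ± 0.159 (standard error) for NRCWE-025 and -1.10 ± 0.211 for NRCWE-030, or 2.19 and 2.14-fold lower.

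Aox1 levels were 1.73, 1.58, 1.69, 1.66 and 1.61 in the vehicle group and 0.95, 1.08, 1.2, 1.05 and 1.00 after 162 µg NRCWE-025. After 162 µg NRCWE-030 they were 0.87, 1.05, 1.32, 1.08 and 1.18. The controls were tightly grouped, and neither treated group reached them. The differences were -0.60 ± 0.0825 and -0.55 ± 0.0974.

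Hnrnpdl was the only member with higher levels. The vehicle mice had -1.15, -0.75, -0.72, -0.84 and -0.84. After 162 µg NRCWE-025 the levels were -0.29, -0.43, -0.20, 0.54 and -0.16, and after 162 µg NRCWE-030 they were -0.29, -0.089, -0.11, 0.10 and 0.43. All treated mice lay above all controls in both groups. The differences were 0.75 ± 0.138 and 0.87 ± 0.169.

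Nxph3 had a larger difference with NRCWE-030 (-1.10 ± 0.191) than with NRCWE-025 (-0.63 ± 0.146). Its vehicle levels of 3.28, 3.06, 2.46, 3.27 and 3.17 include 1 low mouse, and 2 of the 5 mice given 162 µg NRCWE-025 (2.26, 2.18, 2.54, 2.30 and 2.82) lay above that mouse. The mice given 162 µg NRCWE-030 (2.01, 1.84, 2.23, 1.96 and 1.69) were all below it. Wdr45 differed by -0.67 ± 0.133 with NRCWE-025, whose highest mouse (1.71) overlapped the lowest control (1.65), and by -0.87 ± 0.159 with NRCWE-030, where all mice were below the controls.

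For the other members the NRCWE-025 and NRCWE-030 differences at 162 µg were close to each other. They were -0.67 ± 0.128 and -0.67 ± 0.157 for Tmem140, and -0.52 ± 0.0931 and -0.57 ± 0.125 for the receptor adaptor Grb7. The ligase receptors gave -0.43 ± 0.0862 and -0.52 ± 0.0808 for Fbxo31, and -0.59 ± 0.139 and -0.62 ± 0.125 for Klhl24. The enkephalin precursor Penk gave -0.74 ± 0.174 and -0.70 ± 0.174. The groups did not overlap the controls in 7 of the 10 genes for NRCWE-025, against 2.09% of all genes, and in all 10 for NRCWE-030, against 4.55%, which likewise follows from the choice of genes.

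**Figure D1:**
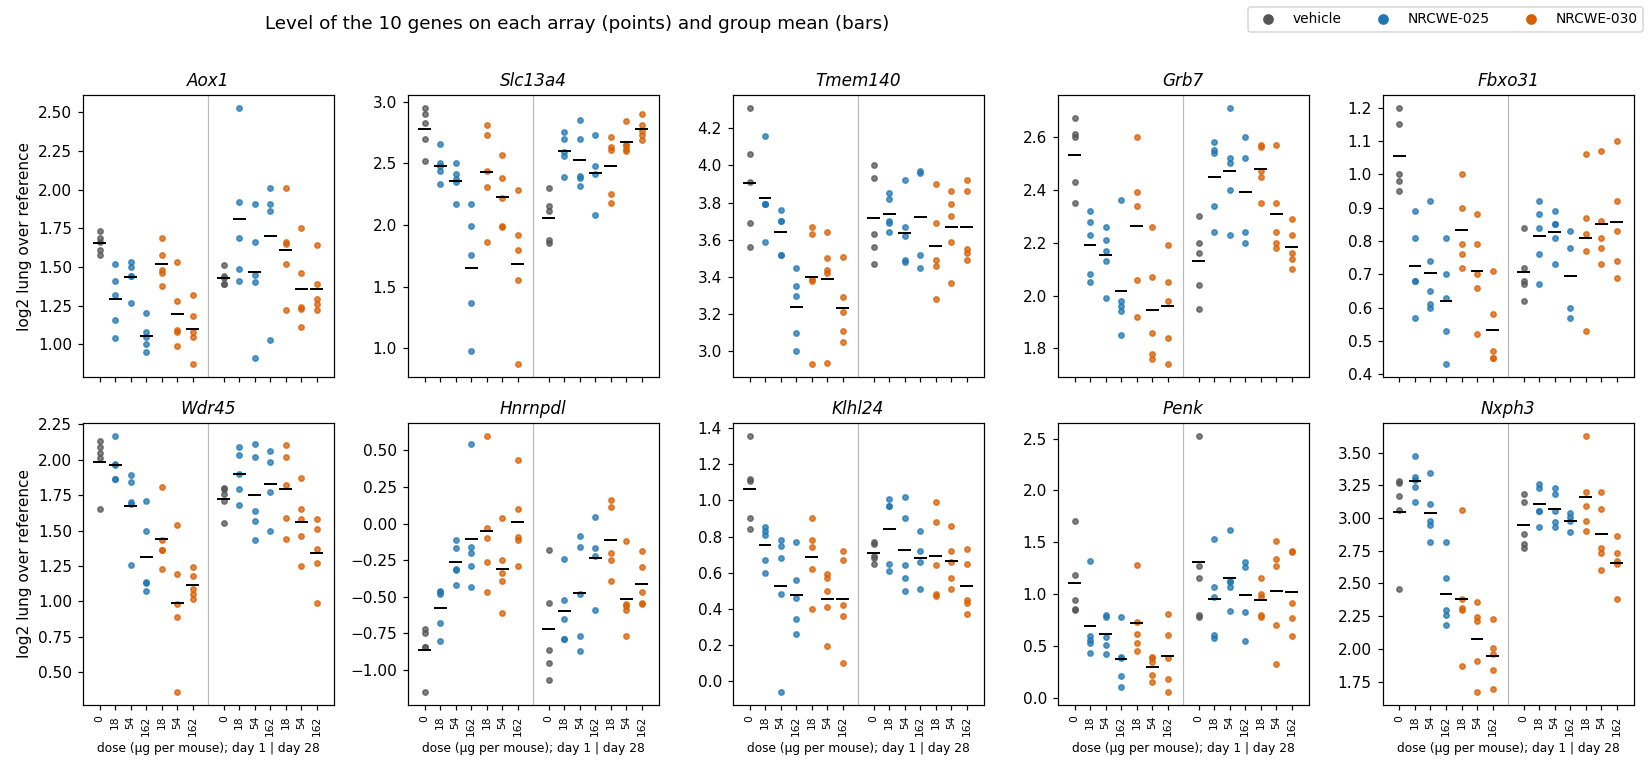
Level of each of the 10 genes (log2 ratio of lung over reference RNA, vertical axis) in every mouse of the 14 groups (horizontal axis), with a bar at each group's mean. In the day 1 groups given 162 µg, all mice lay below the day 1 vehicle for Slc13a4 and Aox1 and above it for Hnrnpdl, and on day 28 the Slc13a4 mice given 162 µg NRCWE-030 lay above their vehicle.

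At the lower doses on day 1, compared with the same 5 vehicle mice that the choice of genes used and therefore given without a test, most members lay on the same side as at 162 µg. For NRCWE-025 the differences at 18 µg ran from -0.42 (Penk) to 0.28 (Hnrnpdl), with 8 of 10 lower (54.6% of all genes were), and at 54 µg from -0.54 (Klhl24) to 0.60 (Hnrnpdl), with 9 lower (against 52.7%). For NRCWE-030 they ran from -0.67 (Nxph3) to 0.81 (Hnrnpdl) at 18 µg and from -0.99 (Wdr45) to 0.55 (Hnrnpdl) at 54 µg, with 9 lower at each dose (against 50 and 52.3% of all genes). At 18 µg, NRCWE-025 mice did not overlap the controls for Aox1, Grb7 and Fbxo31 (3 of 10, against 0.724% of all genes). NRCWE-030 mice did not for Hnrnpdl (1 of 10, against 0.997%). At 54 µg the number was 7 of 10 for NRCWE-025 (against 1.15%) and 8 of 10 for NRCWE-030 (against 1.99%). These counts use the vehicle mice that served to pick the genes, so they follow in part from the choice and nothing is read from them.

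Not every gene followed dose. Slc13a4 mean levels went from 2.78 in the vehicle to 2.48, 2.36 and 1.65 with rising NRCWE-025, and to 2.43, 2.23 and 1.68 with rising NRCWE-030. Wdr45 was lower at 54 µg (0.99 ± 0.43, SD) than at 162 µg (1.12 ± 0.09) of NRCWE-030, and Hnrnpdl at 18 µg NRCWE-030 (-0.053) was near its level at 162 µg (0.0095). Nxph3 after 18 µg NRCWE-025 (3.29) was above its vehicle mean (3.05).

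**Figure D2:**
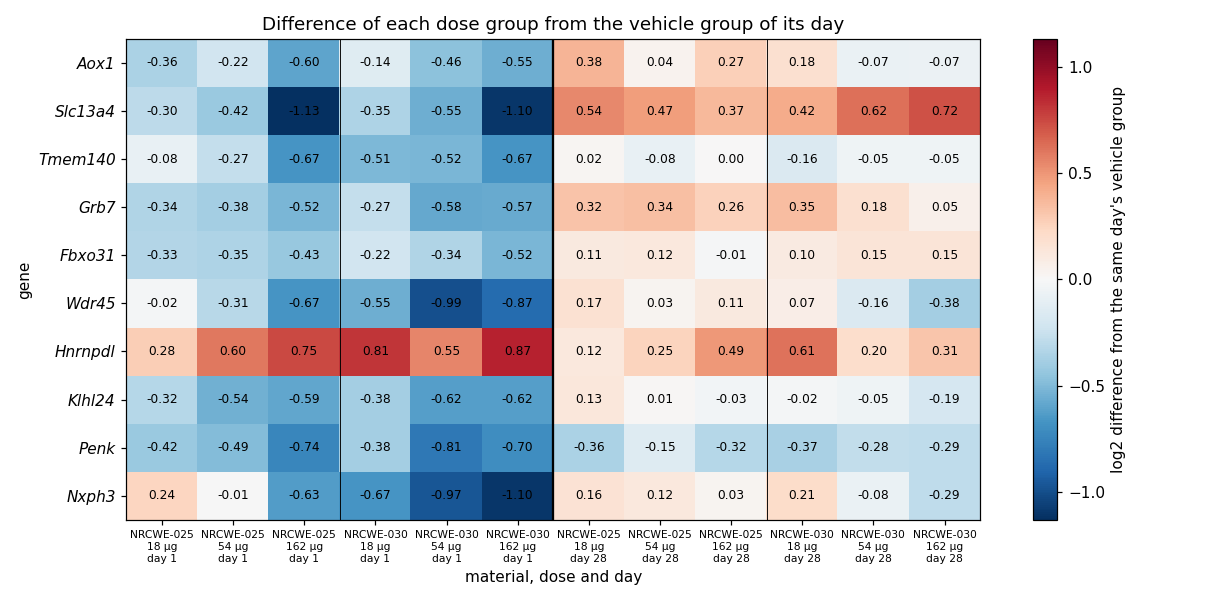
Difference from the same day's vehicle group (log2, colour scale) for each of the 10 genes (rows) in the 12 treated groups (columns). The day 1 columns are negative except for Hnrnpdl and, at 18 µg NRCWE-025, Nxph3, and the day 28 columns are mixed, with Slc13a4 reaching 0.72 at 162 µg NRCWE-030.

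The step from 18 to 54 µg on day 1 was tested because it involves neither the vehicle nor the 162 µg mice. None of the 10 genes passed for either material, against 0% of all genes for NRCWE-025 and 0.0643% for NRCWE-030 (limma, Benjamini-Hochberg adjusted p under 0.05). At an unadjusted p under 0.05 none passed for NRCWE-025, where 3.26% of all genes did, and 4 did for NRCWE-030, where 7.25% did. All 10 genes, Hnrnpdl included, were lower at 54 than at 18 µg NRCWE-030, by -0.45 (Wdr45, 95% interval -0.74 to -0.15) to -0.012, where 53% of all genes were lower.

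The 2 materials differed on day 1 in Nxph3 and Wdr45. This comparison set NRCWE-030 against NRCWE-025 at 18 and 54 µg, mice that the choice of genes had not used. The test over both doses passed for 2 of the 10 genes, against 0.129% of all genes. For Nxph3 the mice given 18 µg NRCWE-025 had 3.24, 3.47, 3.29, 3.31 and 3.12, and those given 18 µg NRCWE-030 had 2.31, 3.06, 1.87, 2.30 and 2.38. At 54 µg they had 2.95, 3.34, 2.98, 3.11 and 2.82 with NRCWE-025, and 1.91, 1.67, 2.36, 2.21 and 2.24 with NRCWE-030. At both doses every NRCWE-030 mouse was below every NRCWE-025 mouse of that dose. Nxph3 was lower with NRCWE-030 by -0.90 ± 0.149 at 18 µg (adjusted p = 0.00193) and by -0.96 ± 0.149 at 54 µg (adjusted p = 0.000409, limma), and the adjusted p over both doses was 2.76e-07. Dose by dose, 0.0482% of all genes passed at 18 µg and 0.059% at 54 µg. The 54 µg level with NRCWE-030 was 0.513 of that with NRCWE-025. With the local backgrounds as deposited the difference was the same but the adjusted p over both doses was 0.134.

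Wdr45 levels were 1.97, 1.86, 2.17, 1.86 and 1.96 after 18 µg NRCWE-025 and 1.36, 1.81, 1.43, 1.36 and 1.23 after 18 µg NRCWE-030. At 54 µg they were 1.69, 1.84, 1.26, 1.70 and 1.89 with NRCWE-025 and 0.98, 0.89, 1.19, 1.54 and 0.36 with NRCWE-030. The groups did not overlap at 18 µg, and at 54 µg 1 mouse of each overlapped the other group. The difference was -0.53 ± 0.15 at 18 µg (adjusted p = 0.223, limma) and -0.68 ± 0.15 at 54 µg (adjusted p = 0.0492), and the adjusted p over both doses was 0.00521. Of all genes, Wdr45 was the one most like Nxph3 across mice, with a Pearson r of 0.783 over the 69 arrays and of 0.387 once group means were removed.

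Arrays were hybridised on slides of up to 4. With slide as a fixed block, the 54 µg difference was -0.97 for Nxph3 (adjusted p over both doses 0.000478, limma) and -0.72 for Wdr45 (adjusted p = 0.0527). On slides that also carried a day 1 vehicle array, Nxph3 was lower in all 2 mice given 18 µg and all 3 given 54 µg NRCWE-030 (differences of -1.60 to -0.93). On such slides it was lower in 1 and higher in 1 of the 2 mice given each of these doses of NRCWE-025 (-0.34 to 1.01). Both higher values (1.01 and 0.89) are against vehicle replicate 3, the mouse with the low Nxph3 level of 2.46. None of the NRCWE-030 mice shared a slide with that mouse. Arntl, a core gene of the circadian clock and among the genes most like Nxph3, was also lower with NRCWE-030 at 54 µg, by -1.04 ± 0.239 (adjusted p = 0.0773, limma), and at 18 µg by -0.83 ± 0.239 (adjusted p = 0.223). Neither dose passed alone, and the adjusted p over both doses was 0.00801. Against the day 1 vehicle, Arntl differed at 162 µg by -1.51 ± 0.32 with NRCWE-030 and by -0.66 ± 0.332 with NRCWE-025, given as descriptions. On day 28 Arntl was lower than the vehicle at 162 µg NRCWE-030, by -1.37 ± 0.178 (adjusted p = 0.00124, limma), where 0.0965% of all genes passed. Its part in the Nxph3 and Wdr45 results was not tested.

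**Figure D3:**
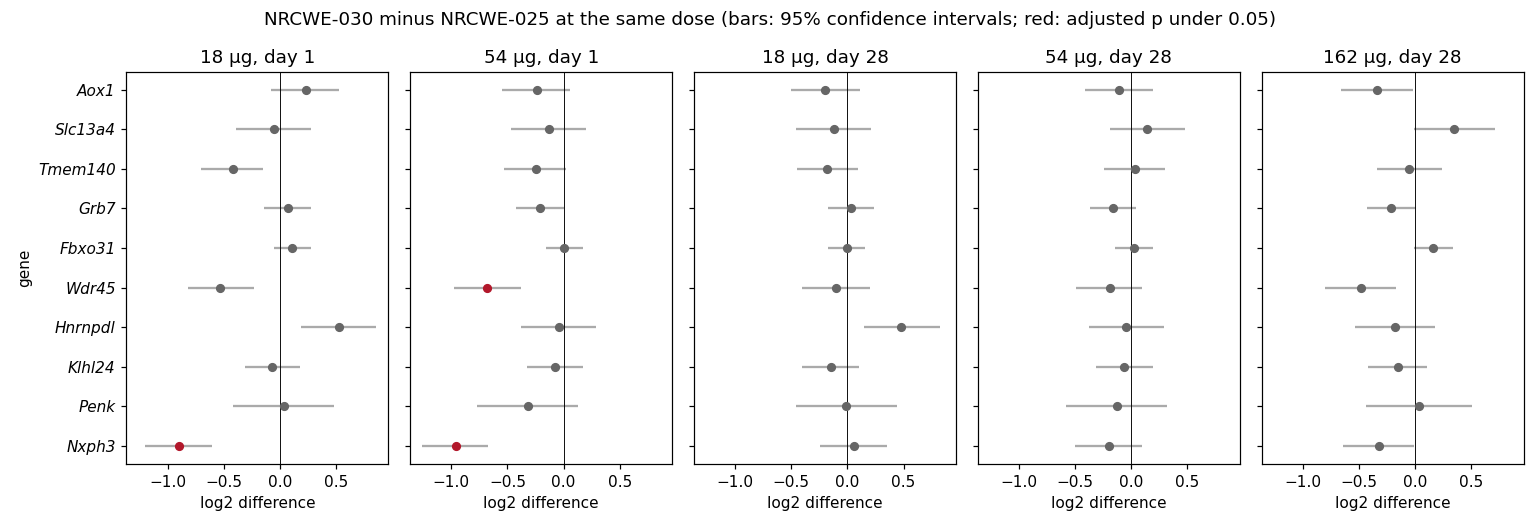
Difference between the materials at the same dose, NRCWE-030 minus NRCWE-025 (log2, horizontal axis), for each of the 10 genes (rows) at 18 and 54 µg on day 1 and at 18, 54 and 162 µg on day 28, with 95% intervals and red points for an adjusted p under 0.05. Nxph3 is red at 18 µg (-0.90) and 54 µg (-0.96) on day 1 and Wdr45 at 54 µg (-0.68), and no gene is red on day 28.

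At 162 µg on day 1 the 2 materials differed most in Nxph3 among the 10 genes, by -0.47 ± 0.149, which is given without a test. On day 28 none of the 10 genes passed between the materials over the 3 doses, against 0.241% of all genes (limma), and 2 had an unadjusted p under 0.05, against 6.29%. The day 28 differences between materials at 162 µg were -0.48 for Wdr45 (95% interval -0.80 to -0.17) and -0.32 for Nxph3 (-0.64 to -0.0052). The day 1 difference in Nxph3 at this dose, -0.47, lies within its day 28 interval, as does that of Wdr45, -0.19, in its own. At 54 µg on day 28 the differences were -0.19 for Wdr45 (-0.49 to 0.10) and -0.20 for Nxph3 (-0.50 to 0.10), and the day 1 differences at 54 µg lie outside these intervals. The change between the days was not tested.

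On day 28, 1 of the 10 genes passed against the vehicle. For NRCWE-025 none passed at 18, 54 or 162 µg, against 0.059, 0.0268 and 0.0161% of all genes, nor over the 3 doses, against 0.0268% (limma). At an unadjusted p under 0.05, 2, 2 and 3 of the 10 did, against 8.89, 7.07 and 7.24% of all genes. For NRCWE-030 none passed at 18 µg (against 0.118%), 1 passed at 54 µg (against 0.0536%), 1 at 162 µg (against 0.0965%) and 1 over the 3 doses (against 0.102%). At an unadjusted p under 0.05, 3, 2 and 3 of the 10 did at the 3 doses of NRCWE-030, against 9.03, 6.52 and 7.51% of all genes, and 5 did over the doses, against 7.06%. The gene that passed after adjustment was Slc13a4 in each case, and it was higher, not lower as on day 1.

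The day 28 vehicle mice had Slc13a4 levels of 1.88, 2.11, 2.30, 1.85 and 2.15. The mice given 54 µg NRCWE-030 had 2.65, 2.84, 2.62, 2.60 and 2.65, and those given 162 µg had 2.90, 2.73, 2.69, 2.76 and 2.81. Both treated groups were tightly grouped and lay above every control. Of all genes, 1.59 and 2.11% did not overlap the controls in these groups. The sulfate transporter was higher by 0.62 ± 0.104 at 54 µg (1.53-fold, adjusted p = 0.0173, limma) and by 0.72 ± 0.104 at 162 µg (1.65-fold, adjusted p = 0.00289), and the adjusted p over the 3 doses was 0.0103. With NRCWE-025 the differences were 0.54 (95% interval 0.28 to 0.80), 0.47 (0.21 to 0.74) and 0.37 (0.09 to 0.65) at 18, 54 and 162 µg, none of which passed. Between the materials the 162 µg difference was 0.35 (-0.0071 to 0.71).

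Slc13a4 also differed between the vehicle groups of day 1 and day 28. The day 28 vehicle mice lay 0.72 below the day 1 vehicle mice. The treated mice of day 28 (group means from 2.43 to 2.78) were at or under the day 1 vehicle mean of 2.78. Since the choice of genes used the day 1 vehicle mice, this is given without a test. The part of the vehicle level in the day 28 difference was not tested. On slides that carried a day 28 vehicle array, the NRCWE-030 mice were higher in 3 of 3 pairs at 54 µg (0.47 to 0.77) and 3 of 3 at 162 µg (0.43 to 1.02). With slide as a fixed block the 162 µg difference was 0.65 with an adjusted p of 0.0772, with the arrays scaled to a common spread 0.60 (0.236), and with the scanner software's own log ratios 0.12 (0.995, limma). Without any 1 array, the 162 µg difference passed in 10 of 10 refits. At 54 µg it did not pass without vehicle replicate 1, 2 or 4 or without treated replicate 2 or 4. Over the 3 doses it did not pass without vehicle replicate 1 or 2, the highest adjusted p being 0.0611.

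Other genes on day 28 gave values with wide intervals. Hnrnpdl, higher on day 1, had differences of 0.12, 0.25 and 0.49 with rising NRCWE-025 and 0.61, 0.20 and 0.31 with rising NRCWE-030. Its adjusted p ranged from 0.124 to 0.886 (limma). Grb7 was above every day 28 control in the 5 mice given 18 µg NRCWE-030, by 0.35 (95% interval 0.18 to 0.52, adjusted p = 0.0925, limma), where 1.85% of all genes did not overlap the controls. At 162 µg NRCWE-030, Wdr45 differed from the vehicle by -0.38 ± 0.132 (unadjusted p = 0.00971, adjusted p = 0.466, limma) and Nxph3 by -0.29. For each of these 2 genes, 4 of the 5 mice lay below every day 28 control. The intervals at that dose were -0.33 to 0.19 for Aox1, -0.32 to 0.22 for Tmem140 and -0.39 to 0.024 for Klhl24. They were -0.047 to 0.35 for Fbxo31 and -0.86 to 0.28 for Penk. The day 1 differences at that dose of -0.55 (Aox1), -0.67 (Tmem140), -0.62 (Klhl24) and -0.52 (Fbxo31) lie outside these intervals, and that of Penk (-0.70) lies within its own. Those day 1 values served to pick the genes and have errors of their own. The change between the days was not tested.

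**Figure D4:**
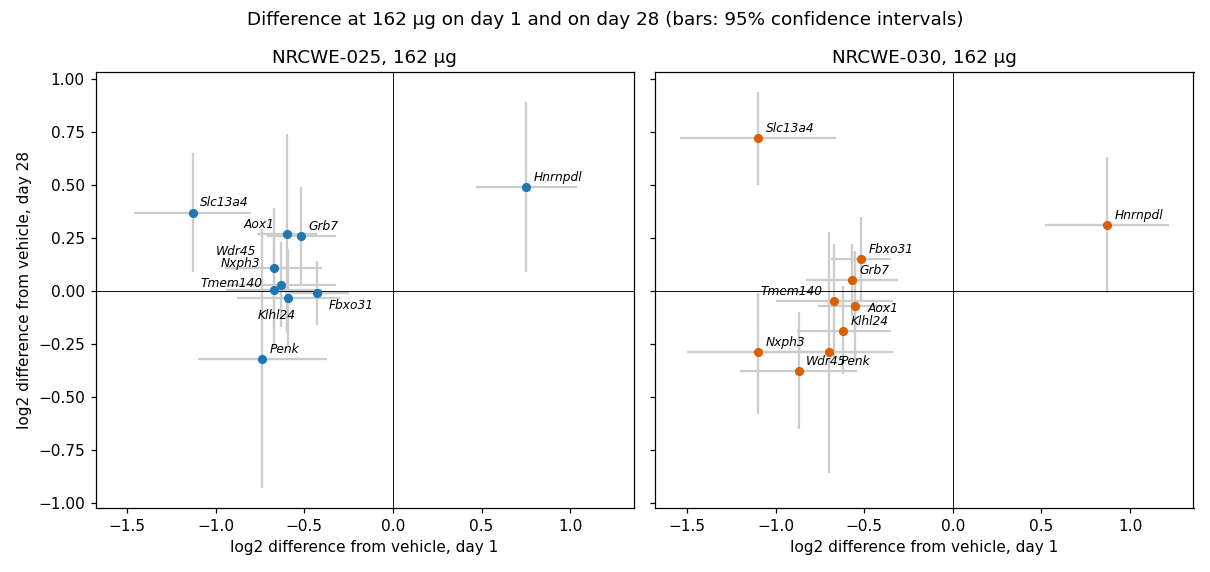
Difference from the same day's vehicle (log2) at 162 µg for each of the 10 genes, with day 1 on the horizontal and day 28 on the vertical axis, 1 panel for each material and bars for 95% intervals. Slc13a4 goes from -1.10 on day 1 to 0.72 on day 28 with NRCWE-030, and the day 28 intervals of Tmem140 and Fbxo31 include 0 for both materials.

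The day 1 vehicle group stood at an end of the range of the 14 groups. It had the highest mean of all groups for Slc13a4, Tmem140, Grb7, Fbxo31, Wdr45 and Klhl24 (6 of 10) and the lowest for Hnrnpdl. Between the days, vehicle mice were lower on day 28 in 8 of the 10 genes and in 52.5% of all genes. The choice of genes used the day 1 vehicle mice, so these positions follow in part from it, and nothing further is read from them. Set against the day 28 vehicle instead, the 162 µg mice of day 1 were lower in all 9 genes for both materials. These mice served to pick the genes, so this direction is no check, and day and slide can hardly be told apart. The differences were smaller than against the day 1 vehicle in 8 of the 9. They were -0.40 and -0.37 for Slc13a4, -0.38 and -0.33 for Aox1, -0.11 and -0.17 for Grb7, and -0.088 and -0.17 for Fbxo31. Klhl24 had -0.23 and -0.26, Wdr45 -0.41 and -0.61, Tmem140 -0.48 and -0.48, and Nxph3 -0.53 and -1. Penk was the exception, with larger differences that way (-0.94 and -0.90). When the 14 means of a gene were put in order, in 0 of the 13 steps of any gene did the mice of neighbouring groups fail to overlap. With 14 groups put in order by their means, neighbours lie close in any gene, so nothing is read from this.

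Mice given 18 or 54 µg were compared between the days without the vehicle. Grb7, Penk and Nxph3 were higher on day 28 than on day 1, 3 of the 10 genes, against 2.83% of all genes that passed as higher and 4.37% that passed in either direction (limma). Grb7 was higher by 0.29 ± 0.0519 (adjusted p = 0.000376), Penk by 0.44 ± 0.112 (adjusted p = 0.0151) and Nxph3 by 0.36 ± 0.0745 (adjusted p = 0.00265). Of the 10 genes, 9 were higher on day 28, as 50.8% of all genes were, and Hnrnpdl differed by -0.12. With the local backgrounds as deposited none of the 3 passed. With slide as a fixed block Nxph3 was higher by 1.02 (adjusted p = 0.048, limma), while Grb7 (0.31) and Penk (0.81) had adjusted p of 0.291 and 0.283, and Klhl24 passed there alone among the alternatives, with 0.87 (adjusted p = 0.00524). Nxph3 did not pass with the arrays scaled to a common spread (adjusted p = 0.0937), nor Penk with slide as a random block (adjusted p = 0.065, limma). Of the 19 slides, 1 held arrays of both days, so slide and day can hardly be told apart.

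Penk levels followed those of fat cell genes. Its level over the 69 arrays followed the mean of 4 fat cell markers (Adipoq, Cfd, Plin1 and Fabp4) with a Pearson r of 0.805, and of 0.838 after group means were removed. The mean of these markers was 2.89 ± 1.64 (SD, range 1.60 to 5.65) in the day 1 vehicle mice. It was 1.31 ± 1.19 (0.33 to 3.33) after 162 µg NRCWE-025 and 1.84 ± 1.60 (0.65 to 3.65) after 162 µg NRCWE-030, and these ranges overlap the vehicle. In both groups 4 of 4 markers were lower, where 50 and 48.7% of all genes were, and none passed. The part of the fat cell markers in the Penk difference was not tested. The 2 Penk probes also disagreed, with differences of -1.18 and -1.08 at 162 µg on day 1 in one, and of -0.30 and -0.32 in the other, which was well above background on 46 of the 69 arrays. The heart muscle markers averaged 2.38 ± 1.72 in the vehicle, 1.04 ± 0.328 after 162 µg NRCWE-025 and 2.00 ± 1.76 after 162 µg NRCWE-030. They were lower in 5 of 5 with NRCWE-025 and in 3 of 5 with NRCWE-030, and none passed. Neutrophil markers averaged 2.94 in the vehicle, 3.01 after 162 µg NRCWE-025 and 3.23 after 162 µg NRCWE-030. One neutrophil marker, Csf3r, was higher after 162 µg NRCWE-030 by 1.25 (adjusted p = 0.00262, limma), and the fibroblast marker Pdgfra was lower by -0.55 (adjusted p = 0.0463). Both lists were split in that group, with 3 neutrophil markers higher and 2 lower, and 3 fibroblast markers higher and 3 lower. Airway markers were lower in 4 of 4 with both materials, with medians of -0.35 and -0.44, and none passed. The part of these markers in the members' differences was not tested. Of the other members, Fbxo31 had 2 probes, Hnrnpdl 3 and the rest 1 each, and these were well above background on all 69 arrays. The Fbxo31 probes gave -0.55 and -0.66 (NRCWE-025 and NRCWE-030 at 162 µg on day 1) against -0.32 and -0.38. The Hnrnpdl probes gave 0.75 and 0.87, 0.28 and 0.24, and 0.52 and 0.41. Within each gene these day 1 probe differences had the same sign but differed in size by over 1.5 times. On day 28 signs could differ, as for Fbxo31 at 162 µg NRCWE-025 (0.079 and -0.10). The Hnrnpdl probes gave 0.20, 0.30 and -0.042 at 54 µg NRCWE-030 on day 28. In the 162 µg NRCWE-025 group of day 1, 55.4 ± 3.74% of probes were well above background, against 61.5 ± 4.21% in its vehicle group.

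The genes whose levels were most like each member over the 69 arrays were found by Pearson r. These values are descriptions over mice that share groups, slides and the reference RNA. The highest were Cd209f with Penk (0.918), Hnrnpa2b1 with Hnrnpdl (0.837), Fam189a2 with Wdr45 (0.831) and Amy1 with Penk (0.808). Then came Tuft1 with Wdr45 (0.784), Arntl with Nxph3 (0.769), Dixdc1 with Grb7 (0.769), Bik with Aox1 (0.761) and Myom3, a sarcomere gene, with Grb7 (0.759). Stk38 followed Hnrnpdl (0.754), and Slco2b1, an organic anion transporter, followed Slc13a4 (0.75). Tmem109 and Mgrn1 were nearest to Tmem140 (0.734 and 0.712), Ces1f followed Aox1 (0.71), and Chic1 and Slc35f3 followed Klhl24 (0.708 and 0.704). Dpep1 was the second gene for Slc13a4 (0.707), and Por, the reductase of cytochrome P450 enzymes, and Slc4a5 were nearest to Fbxo31 (0.677 and 0.676). Among the 9 lower members themselves, the 36 pairs had a median r of 0.446 over the 69 arrays. Being picked as lower in the same mice builds part of this r in. Once group means were removed the median was 0.128, with 27 of 36 above 0. For each member with all genes tested, the median r was -0.00581 over the 69 arrays. With group means removed it was -0.00161, and 92680 of 186550 values were above 0.

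**Figure D5:**
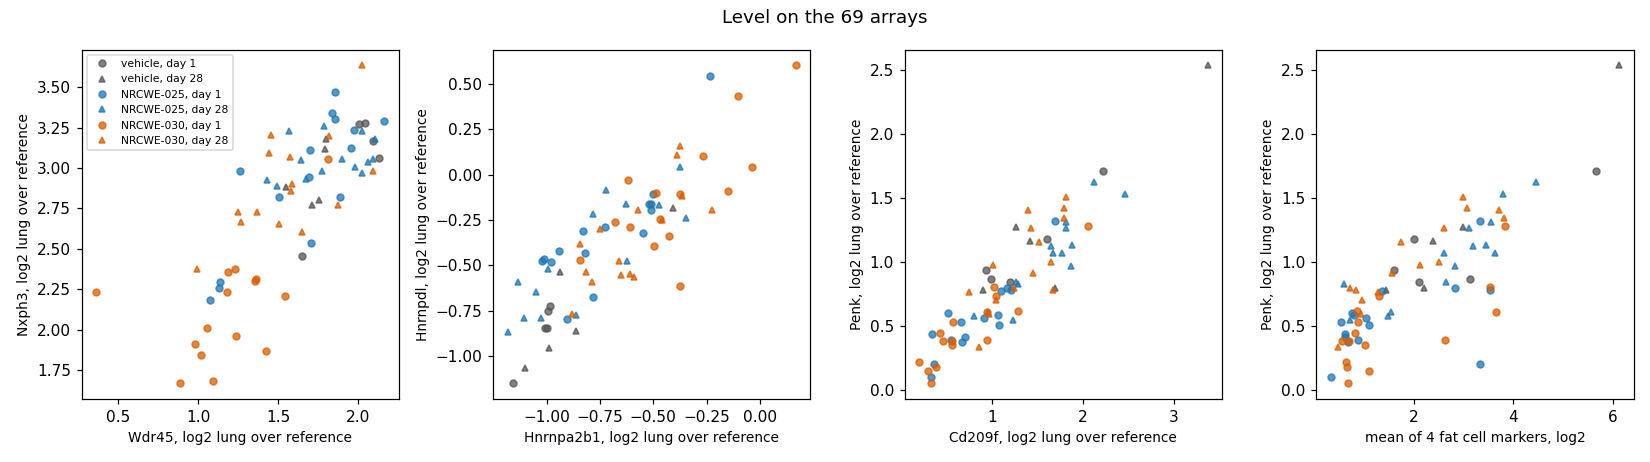
Levels of Nxph3 against Wdr45, Hnrnpdl against Hnrnpa2b1, Penk against Cd209f and Penk against the mean of the 4 fat cell markers (log2 ratios of lung over reference RNA on both axes), 1 point for each of the 69 arrays, coloured by material and shaped by day. The points rise together in each panel, with a Pearson r of 0.783, 0.837, 0.918 and 0.805.

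The relatives and partners of the members were followed through the same 13 tested comparisons. The hnRNP list had 9 calls over its 15 genes and 13 comparisons, and 8 of them were Cirbp, a cold-inducible RNA-binding protein. Comparisons that share a vehicle group are not independent, and 0 to 0.241% of all genes passed in the comparisons other than that between the days. On day 28 Cirbp was higher than in the vehicle by 0.78, 0.76 and 0.87 at 18, 54 and 162 µg NRCWE-025 (adjusted p of 0.0226, 0.03 and 0.0291, limma) and by 0.98 at 18 µg NRCWE-030 (adjusted p = 0.0087). On day 1 it was lower at 54 than at 18 µg NRCWE-030, by -0.94 ± 0.137 (adjusted p = 8.08e-05, limma), and lower with NRCWE-030 than with NRCWE-025 at 54 µg, by -0.69. The ninth call was Hnrnpab, lower by -0.43 at 18 µg NRCWE-025 on day 28 (adjusted p = 0.0226, limma). Hnrnpa2b1, the gene most like Hnrnpdl, was 0.73 above the vehicle at 162 µg NRCWE-030 on day 1, and Rbm3 was 0.48 above it, both given as descriptions.

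Of the 12 measured cullin-RING ligase subunits, Fbxo32 was the only call, higher by 0.20 ± 0.058 on day 28 than on day 1 in mice given 18 or 54 µg (adjusted p = 0.0294, limma), where 4.37% of all genes passed. Of the 10 measured opioid peptide, processing and receptor genes, the peptide-processing enzyme Cpe was the only call, higher by 0.38 ± 0.0975 in the same comparison (adjusted p = 0.0151, limma). No gene passed among the 9 molybdenum hydroxylase and cofactor genes, the 9 sulfate and dicarboxylate transport genes, the 8 adaptors and receptors, the 17 phosphoinositide-binding propeller and autophagy genes, or the 6 neurexophilins and neurexins. The genes with the smallest p in these lists were the cofactor sulfurase Mocos (0.30, adjusted p = 0.245, limma) at 18 µg NRCWE-025 on day 28 and Slc13a3 (0.20, adjusted p = 0.671) between materials on day 28. Next to them stood the receptor Egfr (-0.30, adjusted p = 0.376) at 162 µg NRCWE-030 on day 28. Ulk1, a kinase that starts autophagy, had -0.24 (adjusted p = 0.999, limma) for 54 against 18 µg NRCWE-025, and Nrxn2 had 0.12 (adjusted p = 0.106) between the days.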

How the data were processed

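Lung RNA of 69 mice was measured on two-colour arrays against a common reference RNA, with no dye swap. The deposited scanner files hold, per the file headers, median intensity and local background intensity of both channels, spot flags given as other 0 or 1 values, and the log10 ratio of the scanner software (Agilent Feature Extraction). A deposited log2 ratio table with unstated scaling was an alternative. For background spots with an outlier mark, the median of that array's unmarked backgrounds was used. Then normexp (offset 50) and loess within arrays were applied in limma 3.58.1 under R 4.3.3, without control or flagged spots. Probes were named by RefSeq accession (27479 of 41174 had a symbol), and genes were medians over probes. Values of 18656 genes were tested with limma and Benjamini-Hochberg adjustment, per material and day for doses and in 1 fit of 14 groups otherwise. In data simulated for NRCWE-030 162 µg on day 28, log2 changes of 0.5, 1, 1.5 and 2 were recovered in 60, 94, 100 and 100% of 50 genes each. The simulated arrays were independent, whereas arrays of 1 slide had a correlation of 0.314 in the real data. More genes were changed there than the 18 that passed in the real comparison. These rates may therefore not carry over to the real data. Replicate mice were numbered in accession order. The number of arrays limits the precision. The members, gene lists and tests were chosen with earlier results of these data known. Named were the 10 members, the 2 genes most like each, the 2 nearest genes on either side of the threshold, and from each list the called genes or that with the smallest p.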

Additional observations from a re-analysis of the deposited data

Results flagged for a closer look

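Of the 140 sets of 1 gene in 1 group, 9 (6.43%) held a mouse far from the others by Dixon's test, where chance marks about 1 in 20. Of these, 3 were in the day 1 vehicle group that every day 1 difference uses, with a low Wdr45 level of 1.65 and a low Nxph3 level of 2.46 in replicate 3 and a low Hnrnpdl level of -1.15 in replicate 1. In the 162 µg NRCWE-025 group of day 1, Grb7 was high in replicate 2 (2.36) and Hnrnpdl in replicate 4 (0.54). Penk was high in replicate 2 of 18 µg NRCWE-025 on day 1 (1.32) and in vehicle replicate 4 of day 28 (2.53). On day 28, Aox1 was low in replicate 1 of 162 µg NRCWE-025 (1.03), and Slc13a4 was high in replicate 2 of 54 µg NRCWE-030 (2.84).

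The difference between the materials on day 1 stood out for Nxph3 (-0.96 at 54 µg) and for Wdr45 (-0.68 at 54 µg), by the test over 18 and 54 µg.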

How the results depend on the processing

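Of the 298 values of called results under the alternatives, 0 changed direction. For the comparisons at 162 µg on day 1 that chose the genes, 141 of 204 kept their side of the threshold. For Slc13a4 on day 28, 13 of 37 kept it and 24 lost it, for the difference between the materials 20 of 24 kept it, and for that between the days 26 of 33 did. Of the members called, NRCWE-030 on day 28 (1 over the 3 doses, 1 at 54 µg and 1 at 162 µg) fell to 0 with the backgrounds as deposited, no background correction, the scanner log ratio, the deposited table, scaling between arrays, slide fixed or scan day fixed. The count over the 3 doses was also 0 in 1 fit of all 14 groups and by the ordinary F-test, and that at 54 µg was 0 in the 14-group fit. At 18 µg it rose from 0 to 1 with the scanner log ratio and 2 with slide as a random block. The difference between the materials on day 1 (2 called) gave 1 with backgrounds as deposited, scaling, slide fixed or 1 fit of the 7 day 1 groups. The difference between the days (3) gave 0 with backgrounds as deposited. At 162 µg on day 1, NRCWE-025 (7) gave 4 with no background correction, 1 with the scanner log ratio, 3 with the deposited table and 0 with scaling, slide or scan day, and NRCWE-030 (10) gave 5 with scaling and 2 with slide or scan day. The causes were not tested. Leaving out 1 array gave 2 to 9 for NRCWE-025 and 7 to 10 for NRCWE-030 at 162 µg on day 1, 2 to 2 between the materials, 3 to 5 between the days (5 without NRCWE-025 54 µg day 28 replicate 5), 0 to 1 over the NRCWE-030 doses on day 28, 0 to 2 at 18 µg (2 without vehicle day 28 replicate 5), 0 to 1 at 54 µg and 1 to 1 at 162 µg. The count of 2 for NRCWE-025 came without vehicle day 1 replicate 1, 2, 4 or 5 or treated replicate 4 or 5, and treated replicate 1 gave 4. Over all genes, the calls ranged over the alternatives from 0 to 171 for NRCWE-025 at 162 µg on day 1 (39), from 50 to 585 for NRCWE-030 (316), from 273 to 1503 between the days (816), from 3 to 55 between the materials on day 1 (24) and from 8 to 61 on day 28 (45). They ranged on day 28 from 0 to 14 for NRCWE-025 over the doses (5), 0 to 46, 0 to 9 and 0 to 9 at 18, 54 and 162 µg (11, 5 and 3), and for NRCWE-030 from 3 to 96 over the doses (19) and 0 to 117, 1 to 92 and 5 to 72 (22, 10 and 18). For 54 against 18 µg on day 1 the range was 0 to 1 (0) and 1 to 89 (12). No paired analysis was possible because the replicate numbers follow accession order and pair no mice, and slide was used as the block instead. Signal over background limits the second Penk probe.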
